A study of Rattus norvegicus with 12 samples.

Results

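Chemokines are small secreted proteins that guide immune cells, and 6 of their genes were followed here in inflamed rat oligodendrocyte precursor cells (OPCs), the cells that mature into the myelinating oligodendrocytes of the brain. The genes were Cxcl9, Cxcl10, Cxcl11, Ccl2, Ccl5 and Cx3cl1. They were chosen by name, as chemokine ligands of cytokine-treated OPCs, and are 6 of the 30562 genes in the count tables. All 6 were among the 13348 genes that reached a mean of 5 counts over the 12 libraries and were tested. No threshold on their values was applied here to choose the members, although their response to cytokines was already known. Cxcl11, however, was identified through the study's list of genes changed by cytokines in these libraries. It had therefore passed the thresholds of that list.

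The cells were wild-type primary OPCs shaken from mixed glial cultures of newborn rat cortex, male and female pups pooled. They had been shaken first to remove microglia, and all groups were treated at the switch to differentiating medium. CTL cells received neither agent, with DMSO as the vehicle, and GAL cells received galinex, an agonist of the oligodendrocyte precursor receptor GPR17, at 10 nM. CTK-2 cells received IFN-γ, TNF-α and IL-1β, all at 2 ng/mL, followed after 6 h by vehicle, and CTK2+GAL cells received the same cytokines followed after 6 h by 10 nM galinex. RNA was taken 24 h after galinex or vehicle, with 3 libraries per group. The libraries held 2600797 to 8978185 counted read pairs. The shallowest was a GAL library, and the other 11 held at least 4718825.

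CXCL9, CXCL10 and CXCL11 bind CXCR3 on activated T cells and natural killer cells. CCL2 attracts monocytes through CCR2, CCL5 attracts T cells and monocytes, and CX3CL1 (fractalkine) is a membrane-tethered chemokine whose receptor CX3CR1 marks microglia in the brain. Genes of this kind are classical targets of IFN-γ, acting through GAS elements and through IRF proteins at ISRE elements, and of TNF-α and IL-1β, acting through NF-κB.

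The 250 bases before the transcript start are shown for the 4 members that the RefSeq promoter table holds, so that they can be read for the elements through which the cocktail's pathways are known to act. Capitals mark matches, on either strand, to the GAS motif TTCNNNGAA, the ISRE core (GAAA, any 2 bases, GAAA), the NF-κB consensus or TATAAA.
Cxcl9, GRCr8 chr14:16006916-16007165, plus strand: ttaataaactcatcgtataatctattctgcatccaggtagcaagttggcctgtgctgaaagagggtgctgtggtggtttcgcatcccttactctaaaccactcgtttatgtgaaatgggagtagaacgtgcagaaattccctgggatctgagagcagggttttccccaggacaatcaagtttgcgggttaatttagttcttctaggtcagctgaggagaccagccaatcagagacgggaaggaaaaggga
Cxcl10, GRCr8 chr14:15988816-15989065, plus strand: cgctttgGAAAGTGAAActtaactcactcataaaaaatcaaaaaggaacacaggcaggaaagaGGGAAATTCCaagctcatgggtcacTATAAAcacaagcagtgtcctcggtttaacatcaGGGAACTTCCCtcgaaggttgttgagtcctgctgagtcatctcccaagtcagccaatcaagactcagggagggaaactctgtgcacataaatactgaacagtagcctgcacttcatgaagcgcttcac
Cxcl11, GRCr8 chr14:15973478-15973727, plus strand: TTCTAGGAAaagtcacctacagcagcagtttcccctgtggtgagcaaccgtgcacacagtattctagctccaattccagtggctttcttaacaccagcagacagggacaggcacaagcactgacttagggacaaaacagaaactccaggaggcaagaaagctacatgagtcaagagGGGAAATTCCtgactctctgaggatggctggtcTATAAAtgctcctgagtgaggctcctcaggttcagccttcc
Cx3cl1, GRCr8 chr19:10242821-10243070, minus strand: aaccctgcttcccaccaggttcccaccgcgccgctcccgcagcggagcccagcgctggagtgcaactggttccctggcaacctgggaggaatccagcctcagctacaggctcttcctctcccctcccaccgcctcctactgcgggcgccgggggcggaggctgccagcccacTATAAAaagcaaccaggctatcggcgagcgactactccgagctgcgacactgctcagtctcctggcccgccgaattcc

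Cxcl10 held an ISRE core match, GAAAGTGAAA, 243 to 234 bases before its start. It also held 3 NF-κB matches, of which 2 overlap on opposite strands, and 1 TATAAA. Cxcl11 held 1 GAS match 250 to 242 bases before the start, 1 NF-κB match from 74 to 65 and 1 TATAAA from 41 to 36. The NF-κB match of Cxcl11 and the farthest one of Cxcl10 were the same letters, GGGAAATTCC. Cx3cl1 held TATAAA alone, and the Cxcl9 window held no match to any of the 4 motifs. Of all 33465 RefSeq promoters of the same length, 7.67% held the GAS motif, 3.41% the ISRE core, 6.33% the NF-κB consensus and 12.9% TATAAA. A match is a description of the letters and not of binding.

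**Figure D1:**
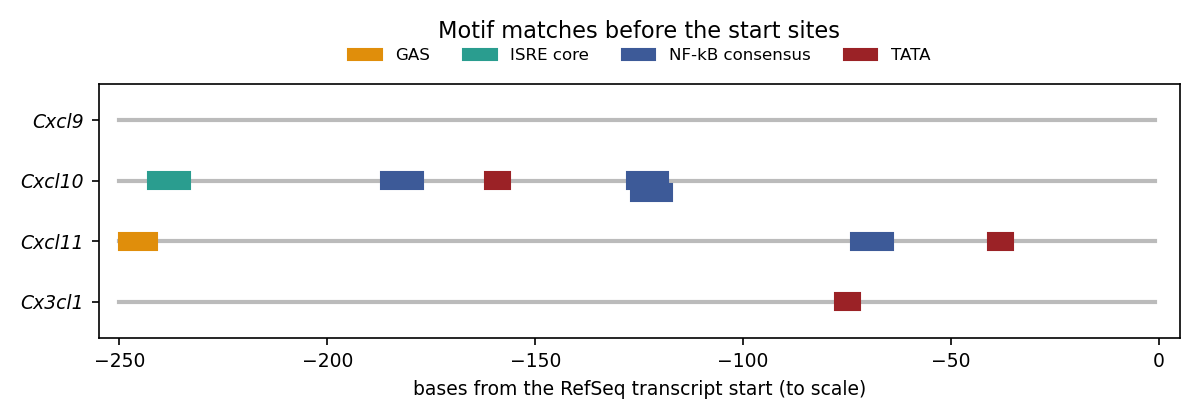
Matches to 4 motifs in the 250 bases before the RefSeq transcript start of 4 chemokine genes, with the distance from the start in bases on the x axis and boxes drawn to scale. Cxcl10 holds 5 matches, Cxcl11 holds 3, Cx3cl1 holds 1 and Cxcl9 holds 0, and a box set lower lies on the opposite strand.

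The libraries numbered 3 of CTL and GAL stood apart from the others without cytokines. CTL replicate 3 held 10 counts summed over Cxcl9, Cxcl10, Cxcl11, Ccl2 and Ccl5, and GAL replicate 3 held 5. The other 4 libraries without cytokines held 0 counts of all 5 genes. Fold changes that rest on their counts or move by more than 1.5 times without these 2 libraries are therefore given with and without them.

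Levels are given as CPM, the read pairs of a gene scaled to the TMM-normalised size of its library. The gene Cxcl10 (ENSRNOG00000022256, mRatBN7.2 chr14:15704758-15706975, plus strand), whose protein is the CXCR3 ligand also called IP-10, was the most abundant of the 6 after cytokines. It had 0, 0 and 4 counts in CTL and 0, 0 and 3 in GAL, against 838, 1083 and 999 in CTK-2 and 864, 1016 and 1627 in CTK2+GAL. In CPM the cytokine-treated libraries held 175, 197 and 185 in CTK-2 and 168, 180 and 180 in CTK2+GAL. The CTK-2 and CTK2+GAL values overlapped, and every one lay far above every library without cytokines. The fitted log2 fold change of Cxcl10 was 9.50 in CTK-2 against CTL (adjusted p = 6.7e-15, the quasi-likelihood test of edgeR, Benjamini-Hochberg adjusted across the whole set of tested genes). In CTK2+GAL against GAL, which uses other libraries, it was 9.58 (edgeR adjusted p = 1.4e-14). From summed counts the ratio was 792, with a 95% counting interval of 309 to 2908, in the first comparison and 848 (290 to 4114) in the second. Without the libraries numbered 3 both groups without cytokines were at 0 counts, and Cxcl10 was at least 673-fold higher in the first comparison and at least 505-fold higher in the second.

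Cxcl9 (ENSRNOG00000022242, chr14:15722908-15728435, plus strand), the CXCR3 ligand best known as a monokine induced by IFN-γ, had 0, 0 and 5 counts in CTL and 0, 0 and 2 in GAL. Its counts were 569, 615 and 564 in CTK-2 and 402, 632 and 951 in CTK2+GAL. This corresponded to 119, 112 and 104 CPM in CTK-2 and 78, 112 and 105 CPM in CTK2+GAL. The groups with cytokines overlapped, with CTK2+GAL replicate 1 the lowest of the 6 libraries. The ratio from summed counts was 379 (95% counting interval 162 to 1169) in CTK-2 against CTL and 720 (199 to 5950) in CTK2+GAL against GAL. The fitted log2 fold changes of Cxcl9 were 8.46 (edgeR adjusted p = 7.1e-13) and 9.26 (adjusted p = 2.0e-12). Without the libraries numbered 3, which leaves 0 counts of Cxcl9 in CTL and GAL, it was at least 403-fold and at least 286-fold higher.

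Cxcl11 (ENSRNOG00000022298, chr14:15689424-15692271, plus strand), the third ligand of CXCR3, had 0 counts in each of the 6 libraries without cytokines. It had 64, 76 and 71 counts in CTK-2 and 56, 83 and 131 in CTK2+GAL. In CPM these were 13.4, 13.8 and 13.1 in CTK-2 and 10.9, 14.7 and 14.5 in CTK2+GAL, a tight set with 1 low library. With a floor of 3 counts over the group, the CTK-2 level of Cxcl11 exceeded that in CTL at least 76.3-fold (edgeR adjusted p = 6.0e-09) and at least 65.3-fold higher in CTK2+GAL than in GAL (adjusted p = 9.2e-09).

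These 3 genes lie in a row on chromosome 14 within 39012 bases, with gaps of 12486 bases between Cxcl11 and Cxcl10 and 15932 bases between Cxcl10 and Cxcl9. Within 150 kb of the row the annotation held 14 other genes, of which 5 were tested and 0 were called in CTK-2 against CTL. Their log2 fold changes ran from -0.40 to 0.02. No exon of another gene on the same strand overlapped the 3 genes.

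Ccl2 (ENSRNOG00000007159, chr10:67005424-67007226, plus strand), which encodes the monocyte attractant MCP-1, had 0, 0 and 1 count in CTL and 0 counts in every GAL library. It had 83, 83 and 81 counts in CTK-2 and 53, 93 and 146 in CTK2+GAL. The CPM values were 17.3, 15.1 and 15.0 in CTK-2 and 10.3, 16.5 and 16.2 in CTK2+GAL, so that CTK2+GAL replicate 1 was again the lowest and the other 5 lay together. The ratio in CTK-2 against CTL was 268 with a 95% counting interval of 47.6 to 10625, wide because it rests on 1 count. Without CTL replicate 3, and so with 0 counts in CTL, Ccl2 was at least 56.9-fold higher. Ccl2 was at least 70.6-fold higher in CTK2+GAL than in GAL. The edgeR adjusted p of Ccl2 was 3.0e-09 and 6.1e-09 in the 2 comparisons.

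Ccl5 (ENSRNOG00000010906, chr10:68322829-68327377, minus strand), also called RANTES, had 0 counts in all 6 libraries without cytokines. It had 90, 114 and 80 counts in CTK-2 and 54, 102 and 210 in CTK2+GAL. In CPM these were 18.8, 20.7 and 14.8 in CTK-2 and 10.5, 18.1 and 23.2 in CTK2+GAL. Among the cytokine-treated groups, Ccl5 varied most of the 6 genes between libraries of 1 group, with a coefficient of variation of 16.6% in CTK-2 and 37.1% in CTK2+GAL, and CTK2+GAL held both its lowest and its highest library. Its CTK-2 level exceeded CTL at least 103-fold (edgeR adjusted p = 1.8e-07) and at least 88.5-fold higher in CTK2+GAL than in GAL (adjusted p = 3.1e-07).

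On chromosome 10, Ccl2 has the chemokine gene Ccl7 9219 bases beyond its end, and Ccl5 lies 1315602 bases away. Ccl7, another monocyte attractant, had 0 counts in each library without cytokines. Its counts were 41, 48 and 36 in CTK-2 and 26, 60 and 70 in CTK2+GAL, at least 45.2-fold above CTL and at least 37.7-fold above GAL. Within 150 kb of Ccl2 there were 6 other genes, 2 of them tested, and Ccl7 was the one called. Within 150 kb of Ccl5, 4 of 11 other genes were tested and 2 were called higher in CTK-2 than in CTL. These were Rasl10b, with a log2 fold change of 0.66, and ENSRNOG00000011205, for which no symbol could be matched. The latter had 0, 0 and 2 counts in CTL and 12, 11 and 8 in CTK-2, too few for a firm fold change.

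Cx3cl1 (ENSRNOG00000016326, chr19:10227340-10236833, minus strand) was the 1 member with a clear level before cytokines. It had 59, 49 and 77 counts in CTL, 21, 42 and 75 in GAL, 295, 334 and 352 in CTK-2 and 322, 355 and 570 in CTK2+GAL. In CPM these were 10.1, 9.72 and 12.5 in CTL and 8.14, 7.02 and 12.9 in GAL, against 61.6, 60.6 and 65.1 in CTK-2 and 62.5, 62.9 and 63.1 in CTK2+GAL. The groups without cytokines overlapped each other, the groups with cytokines overlapped each other, and the lowest cytokine-treated value was far above the highest value without cytokines. Cx3cl1 rose 5.75-fold in CTK-2 over CTL (log2 fold change 2.52, standard error 0.13, edgeR adjusted p = 3.8e-11). It rose 6.55-fold in CTK2+GAL over GAL (log2 fold change 2.71, standard error 0.14, adjusted p = 3.2e-11). Without CTL replicate 3 the log2 fold change was 2.65, and without GAL replicate 3 it was 3.09. Of 13 other genes within 150 kb, 8 were tested and 1, Pllp, a gene of the myelin proteolipid plasmolipin, was called higher (log2 fold change 0.60). The gene ENSRNOG00000069786, which begins 436 bases from the start of Cx3cl1 on the opposite strand, was below the count filter, with 0 counts in all libraries without cytokines and 2 to 5 in each with them.

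**Figure D2:**
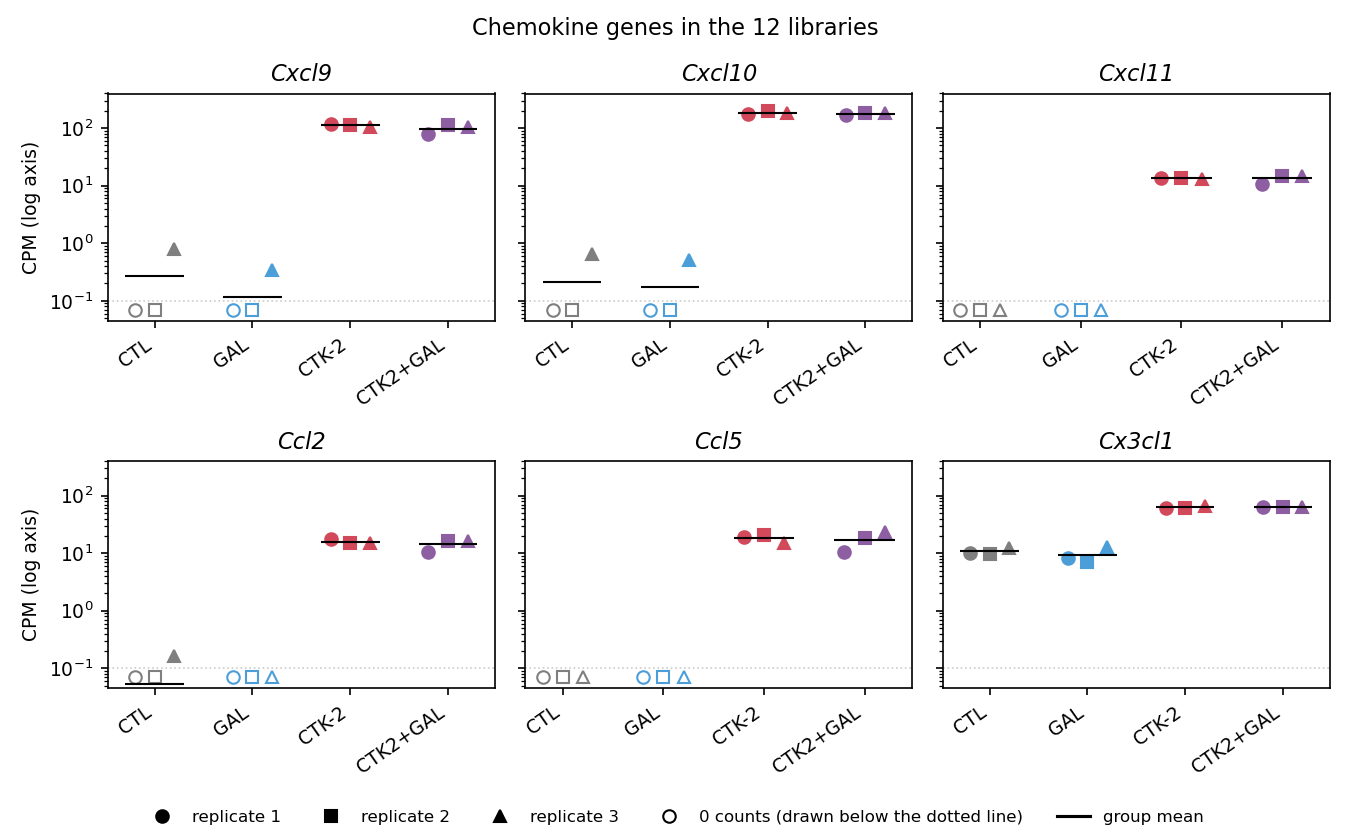
CPM of each chemokine gene (log axis) in the 12 libraries by group, 1 point per library and a line at the group mean, with libraries at 0 counts drawn as open points below the dotted line. The counts of Cxcl9, Cxcl10 and Ccl2 without cytokines sit in replicate 3, Cxcl11 and Ccl5 have none, and Cx3cl1 lies between 7.02 and 12.9 CPM before and between 60.6 and 65.1 CPM after cytokines.

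Thus all 6 genes were called higher in both cytokine comparisons, against 11.5% of all tested genes in CTK-2 versus CTL and 11.7% in CTK2+GAL versus GAL (adjusted p of 0.05 or less, and a log2 fold change of 0.59 or more in size). Every cytokine-treated library lay above every matching library without cytokines for all 6, as it did for 25.2% and 25.5% of tested genes. Since gene symbols could be matched only for genes that the study itself called in CTK-2 against CTL on these libraries, the count there is no independent evidence of direction. Cxcl9, Cxcl10, Cxcl11, Ccl2 and Ccl5 had 0 to 5 counts per group without cytokines. They therefore reached the mean of 5 counts only through the cytokine-treated groups. For them a call as higher is no independent evidence of direction in either comparison. In these bulk cultures, more cells that express a gene and more RNA of that gene per cell cannot be told apart.

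To compare the genes with one another, CPM was divided by the exon length in kilobases. In CTK-2 the order of levels per kilobase was Cxcl10 at 161 ± 9.33, Cxcl9 at 95.4 ± 6.19, Ccl2 at 20.1 ± 1.70, Ccl5 at 15.1 ± 2.51, Cx3cl1 at 15.0 ± 0.571 and Cxcl11 at 11.9 ± 0.295 (SD, n = 3). The levels of Ccl5 and Cx3cl1 overlapped, and those of the other neighbours in this order did not. In CTK2+GAL the means were 152 for Cxcl10, 84.1 for Cxcl9, 18.3 for Ccl2, 15.1 for Cx3cl1, 14.4 for Ccl5 and 11.9 for Cxcl11, and there the ranges of Ccl2, Cx3cl1 and Ccl5 overlapped, as did those of Ccl5 and Cxcl11. Cxcl10 and Cxcl9 together made up most of the summed level of the 6 genes per kilobase, with 50.5% ± 2.39 and 30% ± 1.73 in CTK-2 (SD, n = 3). Without cytokines the summed level was 3.08 in CTL and 2.50 in GAL, against 318 in CTK-2 and 296 in CTK2+GAL. Cx3cl1 made up 89.1% of it in CTL, from 67.3% in replicate 3 to 100% in the others, and 4.73% in CTK-2. Its share was thus lower where its own level was higher.

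**Figure D3:**
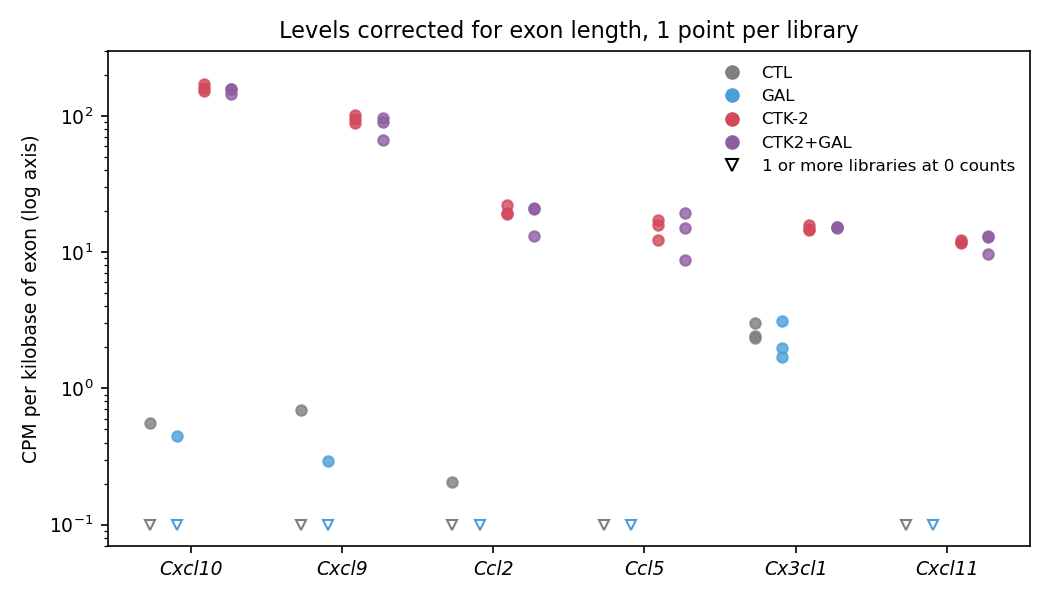
CPM per kilobase of exon (log axis) for the 6 chemokine genes in order of their CTK-2 mean, 1 point per library, with open triangles for groups in which 1 or more libraries had 0 counts. Cxcl10 and Cxcl9 lie apart from the other 4 after cytokines, and only Cx3cl1 has points in all libraries without cytokines.

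The 2 libraries numbered 3 were also compared with the rest for factors of interferon and NF-κB signalling and for other genes. Each library is given as a percent of the mean of the matching cytokine-treated group. Irf1, an IFN-γ-induced transcription factor, stood at 12.9% in CTL replicate 3 and 10.7% in GAL replicate 3, and at no more than 0.837% in the other 4. Irf8, another interferon-induced factor, stood at 7.98% and 7.91%, against no more than 0.139%. Stat2, a factor of interferon signalling, stood at 23.5% and 21.4%, against 5.75% to 6.78%. Members at or near 0 without cytokines were much lower in the same 2 libraries. These stood at 0.725% and 0.349% for Cxcl9, 0.349% and 0.293% for Cxcl10, 1.03% and 0% for Ccl2, and 0% for Cxcl11 and Ccl5. The chemokine Cxcl16, which is no member, stood at 13.6% and 10.6%, against 0.69% to 6.39% in the other 4, and Cxcl12 at 16.1% and 9.64%, within its range of 6.83% to 21.8%. Among genes of the NF-κB pathway, Nfkb2 stood at 13.9% and 13.4%, against 7.17% to 11.2%. Relb stood at 9.43% and 10.7% there, within its range of 6.94% to 13.8% in the other 4, and Tnfaip3 at 6.46% and 4.85%, within its range of 2.52% to 8.03%. Cx3cl1 was at 20.0% and 20.5%, against 11.2% to 16.2%. A pair of microglial markers moved in the same direction, but on few counts. Ptprc was at 38.7% and 45.4% against no more than 6.84%, from 6 counts in each library numbered 3. Csf1r was at 60.0% and 113% against 11.3% to 56.6%, from 13 and 18 counts against 2 to 4. The remaining matched marker, P2ry12, stood at 45.5% and 31.1%, against 11.7% to 31.8%. Their part in the chemokine counts of these libraries was not tested.

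**Figure D4:**
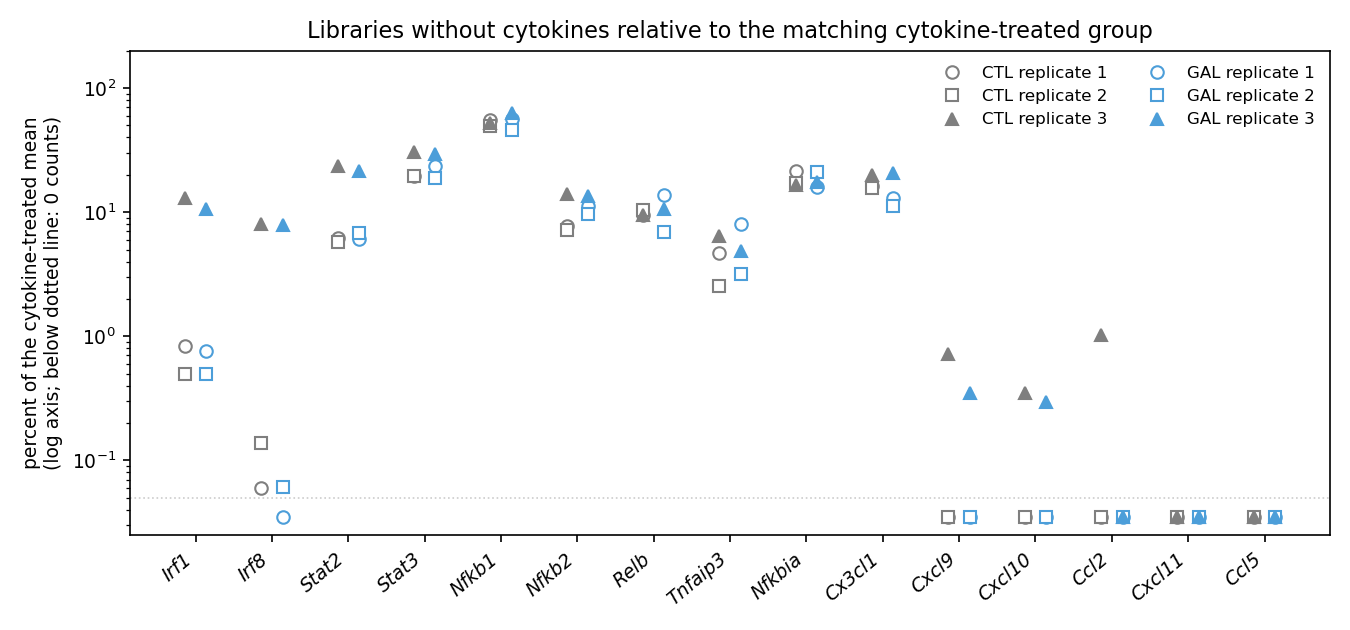
Level of each gene in the 6 libraries without cytokines as a percent of the mean of the matching cytokine-treated group (log axis, CTL against CTK-2 and GAL against CTK2+GAL), with filled triangles for replicate 3 and points below the dotted line for 0 counts. Both filled triangles stand above the rest for Irf1 (12.9% and 10.7%), Irf8, Stat2, Stat3, Nfkb2 and Cx3cl1. They do not for Nfkb1, Relb, Tnfaip3 or Nfkbia, and Cxcl9 and Cxcl10 stay under 1% there.

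Galinex had no detected effect on any of the 6 genes in cytokine-treated cells. In CTK2+GAL against CTK-2 the log2 fold change was -0.17 for Cxcl9 (95% interval -0.42 to 0.08), -0.08 for Cxcl10 (-0.26 to 0.11) and 0.01 for Cxcl11 (-0.34 to 0.36). It was -0.12 for Ccl2 (-0.49 to 0.26), -0.02 for Ccl5 (-0.51 to 0.47) and 0.01 for Cx3cl1 (-0.20 to 0.22). Each interval lies inside the log2 threshold of 0.59 in both directions, and each includes 0. The widest was that of Ccl5 and the narrowest that of Cxcl10. edgeR called 0 of the 13348 tested genes in this comparison (0%), DESeq2 also 0, and 545 genes (4.08%) had an unadjusted p under 0.05. In cells without cytokines the comparison of GAL with CTL could be read for Cx3cl1 alone, with a log2 fold change of -0.18 (95% interval -0.57 to 0.21, adjusted p = 1, edgeR). Its response to cytokines differed by 0.19 on the log2 scale between cells with and without galinex (95% interval -0.25 to 0.63). Without GAL replicate 2 these became 0.06 and -0.05, and without GAL replicate 3 they became -0.56 and 0.56, so neither direction was settled. For both, edgeR called 0 genes (0%), with 574 (4.30%) and 376 (2.82%) at an unadjusted p under 0.05, and DESeq2 called 0.

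**Figure D5:**
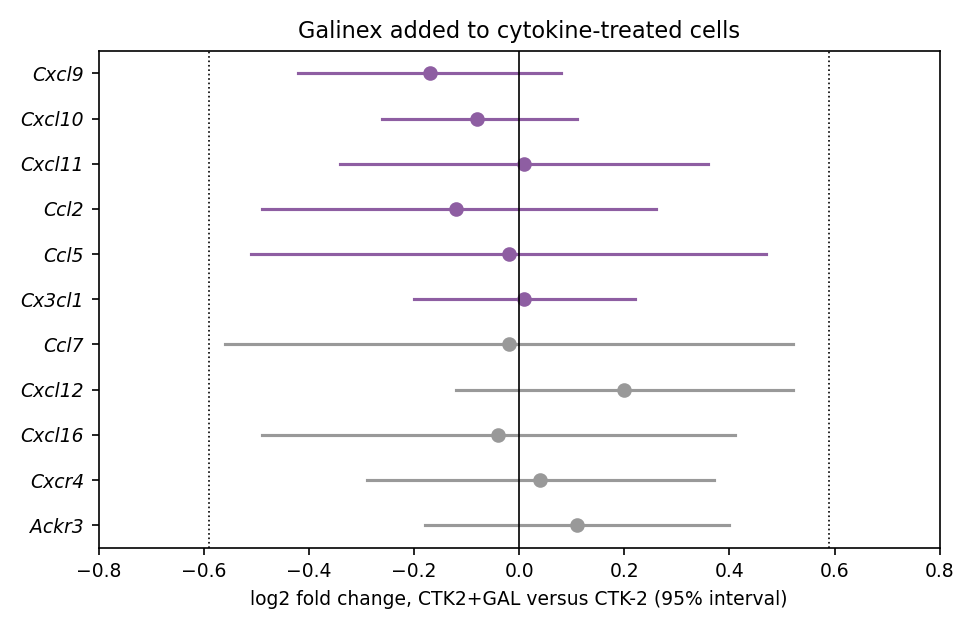
Log2 fold change in CTK2+GAL versus CTK-2 with its 95% interval, for the 6 chemokine genes (purple) and the other chemokine ligands and receptors with a symbol (grey), with dotted lines at the threshold of 0.59 in each direction. Every interval includes 0 and lies between the dotted lines, from -0.17 for Cxcl9 to 0.20 for Cxcl12 at the points.

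CTK2+GAL replicate 1 was the lowest of the 6 cytokine-treated libraries for 5 of the 6 genes, all but Cx3cl1. Over all tested genes that library was the lowest for 15.3%. It had 78 CPM of Cxcl9, 10.3 of Ccl2 and 10.5 of Ccl5, against 104 or more, 15.0 or more and 14.8 or more in the other 5. Leaving it out moved the galinex comparison to -0.04 for Cxcl9, 0.05 for Ccl2, 0.21 for Ccl5 and 0.12 for Cxcl11, all still without a call. Its Cx3cl1 level of 62.5 CPM lay within the range of the others.

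Across the 6 cytokine-treated libraries Cxcl9 and Ccl2 varied most alike (r = 0.97 on log2(CPM + 0.5), Spearman's rho 0.94), followed by Cxcl11 with Ccl2 (r = 0.90) and with Ccl5 (r = 0.90). Cx3cl1, which ran only from 60.6 to 65.1 CPM over these libraries, had r from -0.30 to -0.02 with the other 5. Whether so small a spread exceeds counting error was not tested, so r says little about how Cx3cl1 varied. Among 1752 genes with a symbol, the 1 most like Cxcl9 was Cd14, the lipopolysaccharide co-receptor (r = 0.99), and the 1 most like Ccl2 was Pik3ip1 (r = 0.99). It was Cxcr4 for Cxcl11 (r = 0.98), Relt for Cxcl10 (r = 0.99), Map6d1 for Ccl5 (r = 0.99) and Abcd2 for Cx3cl1 (r = 0.97). These are descriptions over 6 points that share depth and the low library above. No r over all 12 libraries is given, since these fall into separate sets with and without cytokines.

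The lists of genes that follow could be matched only where the study had called a gene in CTK-2 against CTL on these libraries. Their counts and medians in that comparison were therefore fixed by the matching and describe the matched genes alone, and listed genes without a match were not analysed here. Of 36 listed chemokine ligands, 9 could be matched to a gene, and all 9 were higher in both cytokine comparisons (11.5% and 11.7% of all tested genes). Their median log2 fold change, with genes at 0 counts set at their lower bound, was 6.25 and 6.03, against 0.00 and 0.01 over all tested genes. Besides the 6 members and Ccl7 these were Cxcl12 and Cxcl16. Ccl7, at 0 counts without cytokines, also passed the count filter only through the cytokine-treated groups. Cxcl12, the homeostatic ligand of CXCR4, rose by 2.75 on the log2 scale (standard error 0.23), from a mean of 2.53 CPM in CTL to 17.1 ± 2.02 in CTK-2 (SD, n = 3). Cxcl16, a membrane-tethered chemokine like CX3CL1, rose from a mean of 1.64 CPM in CTL to 24.9 ± 4.30 in CTK-2 (log2 fold change 3.85, standard error 0.35). Without both libraries numbered 3 its log2 fold change was 5.03, and 5.31 in CTK2+GAL against GAL in place of 4.10. As with Cxcl9, its highest counts without cytokines were in the libraries numbered 3, with 21 and 15 counts against 1 to 5 in the others.

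Of 23 listed chemokine receptors, 2 could be matched, and both were called higher in both cytokine comparisons, as were 11.5% and 11.7% of all tested genes. Cxcr4, the receptor of CXCL12, was higher by 2.01 on the log2 scale (standard error 0.21) in CTK-2 against CTL and 2.27 (standard error 0.22) in CTK2+GAL against GAL. Ackr3, an atypical receptor that scavenges CXCL12 and CXCL11, had 2.49 (standard error 0.19) and 2.22 (standard error 0.18). The receptors of the other members, such as Cxcr3, Ccr2 and Cx3cr1, could not be matched and were not analysed here.

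Upstream of the chemokines, 3 of 6 listed receptor genes for the cocktail's cytokines were matched and all 3 were higher in both comparisons. Of all tested genes, 11.5% and 11.7% were called higher. Ifngr2, a chain of the IFN-γ receptor, had a log2 fold change of 0.92 in CTK-2 against CTL, Tnfrsf1a, the main TNF receptor, 0.64 and Tnfrsf1b, the inducible TNF receptor, 3.35. Of 12 listed STAT, IRF and NF-κB factors, 8 were matched and 8 were higher in both, with medians of 3.34 and 3.24, where 11.5% and 11.7% of all tested genes were called higher. In CTK-2 against CTL, Relb had a log2 fold change of 3.35, Nfkb2 3.34, Stat3 2.10 and Nfkb1 0.93. The values of the interferon factors depended on CTL replicate 3. Irf1 had a log2 fold change of 4.35 with both libraries numbered 3 and 7.19 without them, and Stat2 had 3.07 and 4.07. Irf8 had 5.10 with them, and from the 3 counts left in CTL without them a ratio of 1034 (95% counting interval 354 to 5016). Irf7 had 5.35 with them, and from 1 count left a ratio of 113 (20.1 to 4506).

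Of 10 listed genes of mRNA decay and NF-κB feedback, whose proteins limit or tune chemokine production, 6 were matched and 6 were higher in both comparisons, with medians of 1.91 and 1.76, where 11.5% and 11.7% of all tested genes were called higher. Tnfaip3 (A20), a deubiquitinase that restrains NF-κB, was higher by 4.41 on the log2 scale (standard error 0.17) in CTK-2 against CTL, and the NF-κB inhibitor Nfkbia by 2.43 (standard error 0.097). Zc3h12a (Regnase-1), which degrades inflammatory mRNAs, was higher by 2.23, and Zfp36 and Zfp36l1, which bind AU-rich elements, by 1.30 and 1.31. Nfkbiz, a nuclear IκB protein, was higher by 1.59. Of 6 listed proteases that cut or shed chemokines, the 1 matched gene, Adam17, a sheddase of CX3CL1 and CXCL16, was lower. Its log2 fold change was -0.78 (standard error 0.10) in both comparisons, against 5.79% and 5.74% of tested genes called lower, and none of the genes of these 4 lists was called in CTK2+GAL against CTK-2.

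The label of the cells was checked on the oligodendrocyte lineage markers Pdgfra, Cspg4, Mag and Mog, whose summed level was 676 to 773 CPM in the libraries without cytokines and 1222 to 1383 CPM in those with them. For microglia 3 of 13 markers were matched (Ptprc, Csf1r and P2ry12). Their summed level was 1.89 to 7.61 CPM in CTL and 2.51 to 7.21 in GAL, against 14.3 to 19.2 in CTK-2 and 14.0 to 16.1 in CTK2+GAL, and Ptprc was at 0 in CTL replicate 2 and in GAL replicates 1 and 2. All 3 were called higher in CTK-2 against CTL, a count fixed by the matching, where 11.5% of all tested genes were called higher. In CTK2+GAL against GAL 2 were called higher, as were 11.7% of all tested genes. There Csf1r had a log2 fold change of 0.61 with edgeR adjusted p = 0.396. Without both libraries numbered 3, Csf1r was also called there (1.53, edgeR adjusted p = 0.0297), and Ptprc went from 2.54 to 4.45 in CTK-2 against CTL. The astrocyte marker Aldoc, 1 of 8, was lower, at 153 to 158 CPM in CTK-2 against 229 to 285 in CTL. The endothelial marker Kdr, also 1 of 8, was at 3.97 to 7.77 CPM in CTK-2 against 0.992 to 1.30 in CTL, and none of 7 markers of T and natural killer cells was matched. The part of these cell types in the chemokine levels was not tested.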

How the data were processed

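RNA of rat OPCs was sequenced in 12 libraries. The authors deposited whole-number counts of read pairs per gene and library. Per the file headers these were made with featureCounts 2.0.0 on Ensembl release 112 (mRatBN7.2), counting reverse-stranded pairs with both ends mapped and leaving out duplicates and multi-mapped pairs. The submitters' processing notes also name FastQC, STAR and DESeq2. Their aligner version is not given in the sources used here.

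Counts were tested in R 4.3.3 with edgeR 4.0.16 (TMM, quasi-likelihood, a mean per group, all 12 libraries in 1 fit) on genes that averaged 5 or more counts. The thresholds were those of the study's methods, an adjusted p of 0.05 or less together with a log2 fold change of 0.59 or more in size. Of the tests, only the edgeR test of CTK-2 against CTL was tried on simulated counts. Counting intervals are at 95%, cover counting error only, and use a floor of 3 counts over a group. Nothing states that the libraries of a group came from separate cultures, so p-values measure the spread between these libraries, which may be technical.

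The tables hold Ensembl gene IDs only. Symbols were taken by matching the mean normalised count over the libraries in the study's list of called genes, with the chromosome of each gene from RefSeq, and 1753 of 1786 entries matched 1 gene. Of 781 held-out entries that matched a single gene and have a chromosome in RefSeq, 781 lay on the same chromosome. Genes outside that list carry no symbol and no fold change of the study was used. Some listed genes are not reported here. Promoters are from RefSeq (GRCr8); those of Ccl2 and Ccl5 are not shown.

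The members and lists were chosen with earlier results of these data known. Named were the 6 members, all matched genes of the ligand, receptor, factor and decay lists, up to 4 genes of other lists and the genes most like each member, over the 6 cytokine-treated libraries only. Same-numbered CTL and GAL libraries deviated together (correlations of 0.26, 0.26 and 0.60). Of 18 same-numbered pairs over all groups, these 3 alone were over 0.1. A fit with the replicate number as a block was therefore an alternative for CTL and GAL. Other alternatives were DESeq2 1.42.0, other filters and prior counts, and leaving out each library.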

Additional observations from a re-analysis of the deposited data

How the results depend on the processing

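All 6 members were called higher in both cytokine comparisons, and none in the galinex comparisons or the interaction, under each alternative that gives a test and with each library left out. All 9 ligands and 2 receptors were likewise called in CTK-2 against CTL. Genes called in CTK-2 against CTL ran from 2104 with DESeq2 to 2563 without both libraries numbered 3 (2121 to 2523 with 1 library left out), and in CTK2+GAL against GAL from 2032 to 2535 (2032 to 2417). Without both libraries numbered 3 the fitted log2 fold changes of Cxcl10 and Cxcl9 in CTK-2 against CTL were 13.00 and 12.26, against groups at 0 counts. The fitted log2 fold changes of genes at or near 0 counts depend on the prior count: with a prior of 2, that of Cxcl10 was 8.29 and that of Ccl5 was 5.69 in CTK-2 against CTL. Calls over all genes in GAL against CTL went from 0 to 2 without a filter on low counts and to 4 without both libraries numbered 3, and those of the interaction to 4 and 6. None of these was a member.

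Values near 0 changed sign in the galinex comparisons, the cause was not tested, and none was called. With DESeq2 the log2 fold change of Cxcl11 in CTK2+GAL against CTK-2 was -0.00. With 1 library left out, that comparison ran from -0.06 to 0.12 for Cxcl11 (-0.01 without CTK-2 replicate 3), from -0.02 to 0.04 for Cx3cl1 (-0.00 without CTK-2 replicate 1), from -0.33 to 0.21 for Ccl5 (0.01 and 0.09 without CTK-2 replicates 1 and 2) and from -0.23 to 0.05 for Ccl2. For Cx3cl1 the GAL against CTL value ran from -0.56 to 0.06 and the interaction from -0.05 to 0.56. With the replicate number as a block over CTL and GAL, where the pairing held, Cx3cl1 was at -0.19 and 0 genes were called. A block over all groups changed no call of a member and called 2320 genes in CTK-2 against CTL. Depth limits Cxcl9, Cxcl10, Cxcl11, Ccl2 and Ccl5 without cytokines to a floor of 0.176 CPM in CTL and 0.209 CPM in GAL.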
